A study of Arabidopsis thaliana with 9 samples.

Results

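The KRP and SIAMESE genes of Arabidopsis thaliana encode inhibitors of cyclin-dependent kinases, the enzymes that drive the cell cycle. The genes were taken by locus code, as KRP1 to KRP7, SIM, SMR1 and SMR2. Of these 10 genes 9 were measured, among 20777 loci in all: KRP1 (AT2G23430), KRP2 (AT3G50630), KRP3 (AT5G48820), KRP4 (AT2G32710), KRP5 (AT3G24810), KRP7 (AT1G49620), SIM (AT5G04470), SMR1 (AT3G10525) and SMR2 (AT1G08180). KRP6 (AT3G19150) was not analysed here. The study compared routes to larger leaves in the vegetative part of Col-0 seedlings at growth stage 1.03, grown in vitro on MS medium with 16 h light and 8 h dark at 22 °C. Affymetrix ATH1 arrays, which carry short oligonucleotide probes for most annotated genes, were hybridised with RNA of 3 genotypes, with 3 biological replicates each. The first was 35S::JAW, in which the 35S promoter drives the locus of the microRNA miR319a. The second was 35S::GA20OX, in which the same promoter drives a gibberellin 20-oxidase, which acts late in the making of gibberellin hormones. The third was wild type. The 35S promoter is active in most tissues, so the transgenes were not limited to the cells in which the inhibitors act. The labels do not say whether a line came from a single transformant or how many seedlings were pooled. In whole shoots, fewer cells of a type and less RNA per cell cannot be told apart.

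As background, KRP proteins (also named ICK) resemble the Kip inhibitors of animals, bind CDKA;1 and D-type cyclins, and restrain the entry into and progress of the cell cycle. SIAMESE and the SIAMESE-RELATED (SMR) proteins are found in plants, block mitosis, and favour endoreplication, in which DNA is copied without division. SIM keeps leaf hairs unicellular, and SMR1, also called LOSS OF GIANT CELLS FROM ORGANS, is needed for the giant cells of the sepal epidermis. Both transgenes touch regulators that have been linked to these genes: DELLA proteins, which gibberellin removes, were reported to raise KRP2 and SIM transcripts, and TCP4, a target of miR319, to activate KRP1.

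The values are log2 expression values after RMA, a method that corrects background, equalises the distributions of the arrays and summarises probes. Array medians lay between 6.35 and 6.41 and lower quartiles between 4.28 and 4.42. The number of arrays limits the precision, with a median standard error (SE) of a difference between genotypes of 0.083. As a check of the labels, GA20OX1 (AT4G25420) had a mean of 12.96 ± 0.04 on the 35S::GA20OX arrays and of 6.06 ± 0.07 on the wild-type arrays (SD, n = 3 each). On the 35S::JAW arrays its mean was 5.21 ± 0.20 (SD, n = 3), and it fell there, with a log2 difference from wild type of -0.85. All 5 TCP genes that miR319 targets fell in 35S::JAW, with log2 differences from wild type between -3.43 (TCP2) and -1.83 (TCP10), TCP3, TCP4 and TCP24 lying between them. The 2 measured leaf markers of 5 listed, PSBO1 and FNR1, had values of 12.16 to 14.06. The 4 floral organ markers had values of 3.25 to 4.27 and the 6 root markers 3.32 to 6.71, and no marker was at 0. Called genes, and those written to have risen or fallen, had an adjusted p under 0.05 in limma's moderated test, with Benjamini-Hochberg adjustment over all 20777 loci.

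How the inhibitor genes differ where the miR319-targeted TCP genes are reduced was read from 35S::JAW against wild type. SMR1 fell to 0.629 of its wild-type level, while SMR2 rose 1.58-fold and KRP2 rose 1.19-fold. The other 6 genes did not pass, with log2 differences between -0.18 for KRP1 and 0.35 for KRP4. The 9 genes thus held calls in both directions, 2 higher and 1 lower. Of all loci, 4.34% were called higher, 3.98% lower and 8.32% in either direction. The share called of the 9 genes taken here was 33.3%, while none of 9 other measured SIAMESE-RELATED genes was called. An unadjusted p under 0.05 was found for 5 of the 9 genes and for 20.7% of all loci. The median size of the log2 difference, whatever its sign, was 0.23 over the 9 genes and 0.09 over all loci.

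**Figure D1:**
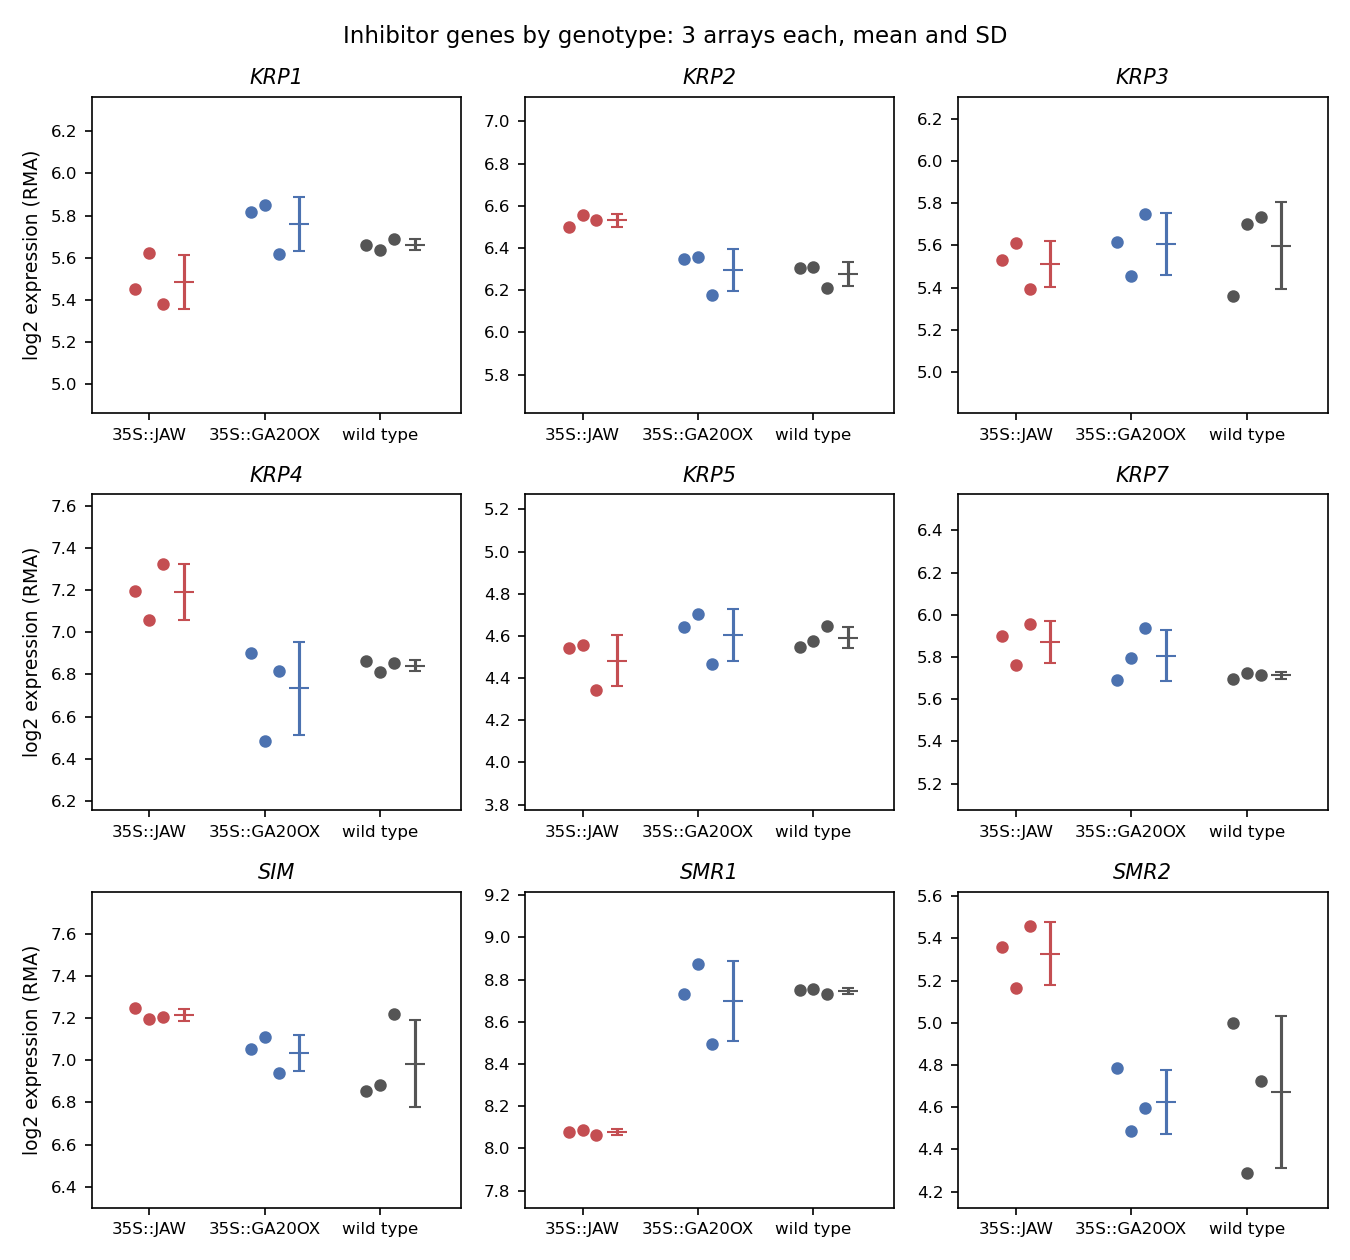
Log2 expression (RMA) of the 9 inhibitor genes on each array, with a panel per gene spanning the same 1.5 log2 units, points for the 3 arrays of a genotype, and the mean with its SD beside them. SMR1 lies lower on the 35S::JAW arrays (8.06 to 8.09) than on any other array, and KRP2, KRP4 and SMR2 lie higher there than on any other array.

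SMR1 had log2 values of 8.08, 8.09 and 8.06 in 35S::JAW, 8.73, 8.87 and 8.49 in 35S::GA20OX, and 8.75, 8.76 and 8.73 in wild type. The 35S::JAW arrays were the 3 lowest of the 9, and the replicates of 35S::JAW and of wild type differed among themselves by no more than 0.027. The log2 difference of 35S::JAW from wild type was -0.67 ± 0.09 (SE), with a 95% interval of -0.86 to -0.48 (limma adjusted p = 0.000644). In the order of all loci by this difference, SMR1 was number 259 from the bottom of 20777. The call held with any 1 of the 9 arrays left out, with log2 differences of -0.68 to -0.66 and an adjusted p of at most 0.0041 in limma.

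SMR2 had log2 values of 5.36, 5.16 and 5.46 in 35S::JAW, 4.79, 4.49 and 4.59 in 35S::GA20OX, and 5.0, 4.29 and 4.73 in wild type. The 35S::JAW arrays were the 3 highest, and the wild-type arrays spread over 0.71, the widest range of any of the 9 genes within a genotype. Its lowest value, in wild type replicate 2, lay near the lower quartile of the arrays. The log2 difference of 35S::JAW from wild type was 0.66 ± 0.16 (SE), with a 95% interval of 0.31 to 0.998 (limma adjusted p = 0.0238), number 229 from the top of all loci. The call was lost without wild type replicate 3 (limma adjusted p = 0.0649), without 35S::JAW replicate 1 (0.0717) and without 35S::JAW replicate 3 (0.0854). The difference stayed between 0.46 and 0.82 over the 9 fits that each leave out an array.

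KRP2, which inhibits CDKA;1 kinase in leaves, had log2 values of 6.50, 6.56 and 6.53 in 35S::JAW, 6.35, 6.36 and 6.18 in 35S::GA20OX, and 6.31, 6.31 and 6.21 in wild type. All 3 35S::JAW values lay above the 6 others. The log2 difference of 35S::JAW from wild type was 0.25 ± 0.07 (SE), with a 95% interval of 0.10 to 0.41 (limma adjusted p = 0.0458). This call was near the threshold. Leaving out any 1 of 8 arrays ended it, with limma adjusted p between 0.0519 and 0.166. The call held without 35S::GA20OX replicate 3 (limma adjusted p = 0.0355), an array that bears on the estimated spread and not on this difference. Over all these fits the difference stayed between 0.22 and 0.27.

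KRP4, which helps to adjust cell size in the shoot meristem, had log2 values of 7.19, 7.06 and 7.32 in 35S::JAW, 6.90, 6.49 and 6.82 in 35S::GA20OX, and 6.86, 6.81 and 6.85 in wild type. The 35S::JAW arrays were again the 3 highest, and the difference from wild type, 0.35 ± 0.11 (SE), did not pass (limma adjusted p = 0.0684). Its 95% interval was 0.12 to 0.58. It passed without 35S::GA20OX replicate 2, the lowest array for this gene (limma adjusted p = 0.0207). The difference itself was unchanged there, since that array is in neither group compared and bears on the spread estimated over the 3 genotypes. In the 8 other fits that leave out an array it did not pass, with limma adjusted p up to 0.204. It passed under each of 7 other settings of the fit at the same threshold, with adjusted p between 0.0293 and 0.0451 in limma.

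SIM had log2 values of 7.25, 7.20 and 7.20 in 35S::JAW, 7.05, 7.11 and 6.94 in 35S::GA20OX, and 6.85, 6.88 and 7.22 in wild type. Wild type replicate 3 lay within the range of 35S::JAW, apart from the other wild-type arrays. The log2 difference of 35S::JAW from wild type was 0.23 ± 0.10 (SE) and did not pass (limma adjusted p = 0.192). Without wild type replicate 3 it was 0.35 and passed (limma adjusted p = 0.025). In the 8 other fits that leave out an array it did not pass, with limma adjusted p up to 0.491.

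KRP1 had log2 values of 5.45, 5.62 and 5.38 in 35S::JAW, 5.82, 5.85 and 5.62 in 35S::GA20OX, and 5.66, 5.64 and 5.69 in wild type. The 35S::JAW arrays lay below the wild-type arrays, and the second of them by only a small step. The log2 difference of 35S::JAW from wild type was -0.18 ± 0.08 (SE), with a 95% interval of -0.36 to 0.01, and did not pass (limma adjusted p = 0.262). KRP7 showed the opposite order, with 5.90, 5.76 and 5.96 in 35S::JAW above 5.70, 5.73 and 5.72 in wild type, and a log2 difference of 0.16 ± 0.08 (SE) that did not pass (limma adjusted p = 0.285). KRP3 overlapped between the genotypes, with a log2 difference of 35S::JAW from wild type of -0.09 that did not pass (limma adjusted p = 0.732). KRP5, which promotes endoreplication in root and hypocotyl cells, overlapped as well, with -0.11 (limma adjusted p = 0.521). KRP5 ranged from 4.34 to 4.70 over the 9 arrays, close to their lower quartiles.

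For 6 of the 9 genes the 35S::JAW arrays did not overlap with the wild-type arrays, 4 of them higher (KRP2, KRP4, KRP7 and SMR2) and 2 lower (KRP1 and SMR1). The same held for 25.6% of all loci.

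Seedlings that overexpress the gibberellin enzyme were set against wild type in the same way. None of the 9 genes passed in limma, and none had an unadjusted p under 0.05, a level that 10.5% of all loci reached. Over all loci 0.332% were called, so that few calls were made in this comparison as a whole. The log2 differences lay between -0.11 for KRP4 and 0.10 for KRP1, with a median size of 0.05 over the 9 genes and 0.07 over all loci. The arrays of the 2 genotypes overlapped for each of the 9 genes, while 16.8% of all loci showed no overlap.

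The 95% intervals of these differences all included 0. Those of KRP4 (-0.34 to 0.12) and KRP1 (-0.09 to 0.28), for example, reached beyond 0.25 in size, the difference called for KRP2 in 35S::JAW. For KRP2 and SIM, the genes linked to DELLA proteins, the log2 differences of 35S::GA20OX from wild type were 0.02 (95% interval -0.13 to 0.17) and 0.05 (-0.16 to 0.26). For SMR1 the difference was -0.05 (-0.24 to 0.14). The interval reaching farthest from 0 was that of SMR2, whose difference was -0.05 (-0.39 to 0.29), so a change of more than 1.31-fold lay outside the 95% interval of each gene. Among the 35S::GA20OX arrays, replicate 3 had the lowest SMR1, KRP2, KRP1, KRP5 and SIM values and the highest KRP3 and KRP7 values, and replicate 2 had the lowest KRP4 and SMR2 values.

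**Figure D2:**
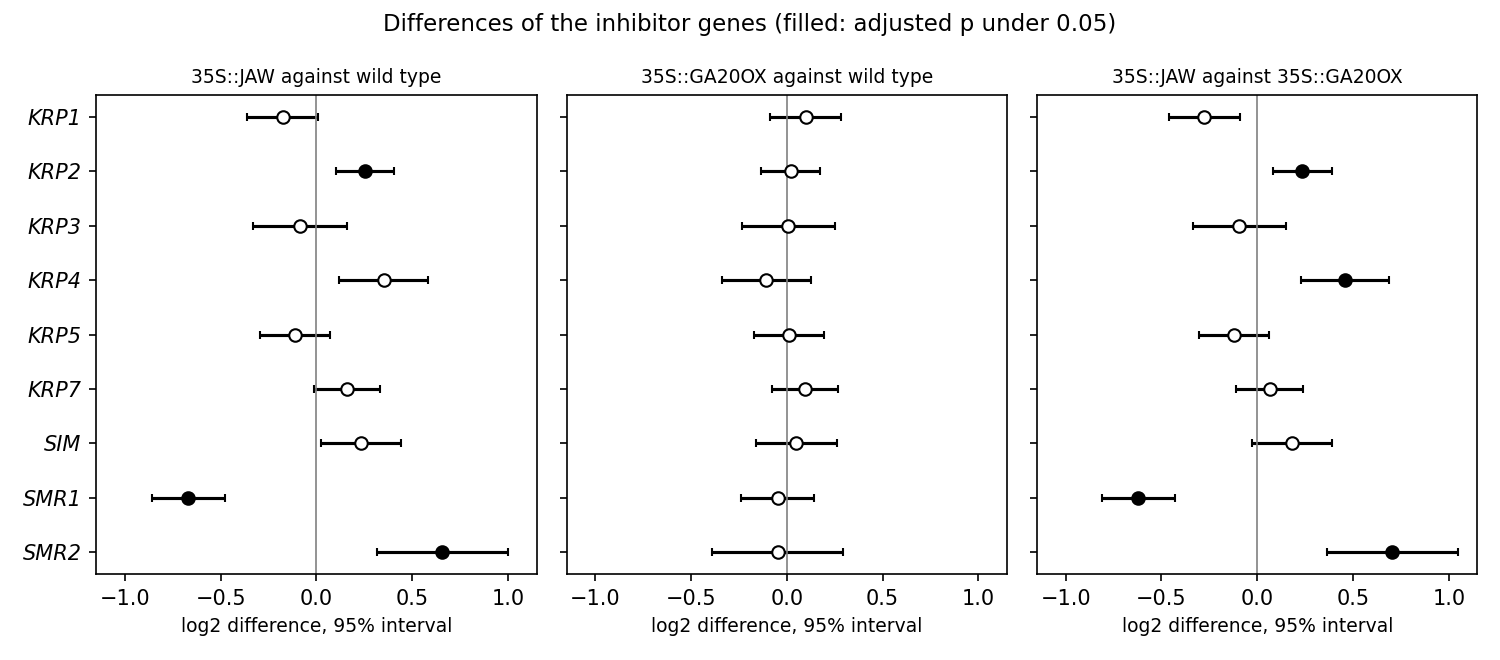
Log2 differences of the 9 inhibitor genes with 95% intervals in 35S::JAW against wild type, 35S::GA20OX against wild type and 35S::JAW against 35S::GA20OX, with filled points for an adjusted p under 0.05. SMR1 (-0.67) and SMR2 (0.66) lie farthest from 0 on opposite sides for 35S::JAW against wild type, and all 9 intervals include 0 for 35S::GA20OX against wild type.

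The lines were then compared with each other, which tests whether the differences from wild type were unequal in the lines. SMR1 fell and SMR2, KRP4 and KRP2 rose in 35S::JAW relative to 35S::GA20OX. The 4 called genes were 44.4% of the 9, against 13.2% of all loci, and the 3 higher and 1 lower genes stood beside 6.71% of loci called higher and 6.52% called lower. The log2 difference of 35S::JAW from 35S::GA20OX was -0.62 ± 0.09 (SE) for SMR1 (limma adjusted p = 0.000764) and 0.70 ± 0.16 for SMR2 (limma adjusted p = 0.0119). It was 0.46 ± 0.11 for KRP4 (limma adjusted p = 0.0148) and 0.24 ± 0.07 for KRP2 (limma adjusted p = 0.0462). In limma's F test over the 3 genotypes SMR1 (adjusted p = 0.000657), SMR2 (0.0183) and KRP4 (0.0315) passed, and KRP2 did not (0.0523). Between the lines KRP1 came next with -0.28 ± 0.08, which did not pass (limma adjusted p = 0.0524).

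The SMR1 call between the lines held with any 1 array left out. That of KRP2 was lost in all 9 such fits (limma adjusted p 0.0548 to 0.169), that of KRP4 without 35S::JAW replicate 3 (0.057) and that of SMR2 without 35S::GA20OX replicate 2 (0.0525). KRP1 passed without 35S::GA20OX replicate 3 (0.0293) or 35S::JAW replicate 2 (0.024), and in the 7 other such fits it did not (limma adjusted p up to 0.171). It also passed under 4 of 7 other settings of the fit at the same threshold. Under 3 of these 7 settings KRP2 lost its call. For 5 of the 9 genes (SMR1 lower, and KRP2, KRP4, SIM and SMR2 higher) the arrays of the lines did not overlap, as for 30.2% of all loci. The comparisons with wild type share their wild-type arrays, and both comparisons of 35S::JAW share its arrays.

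**Figure D3:**
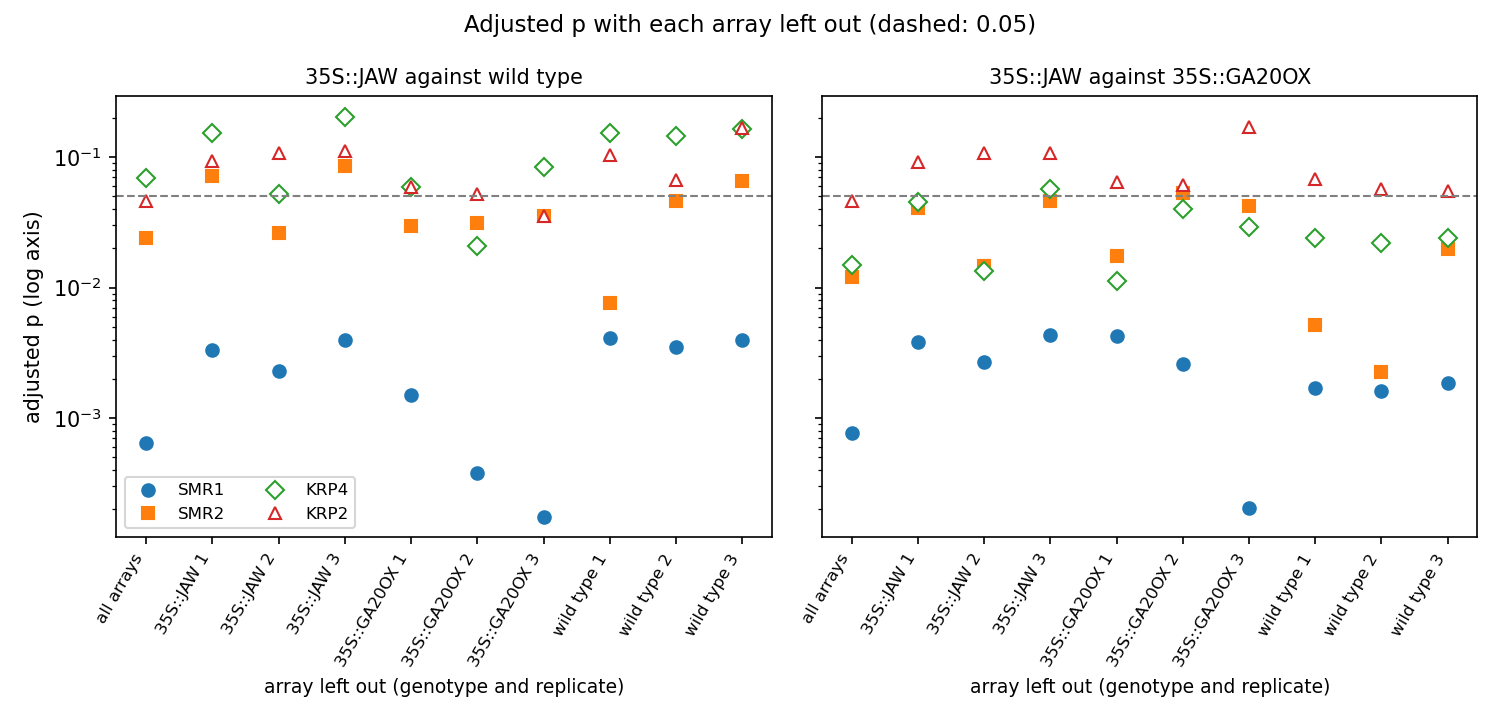
Adjusted p (log axis) of SMR1, SMR2, KRP4 and KRP2 in 35S::JAW against wild type and in 35S::JAW against 35S::GA20OX, with all arrays and with each array left out in turn, and a dashed line at 0.05. SMR1 stays far below the line in each fit shown, while the points of the other 3 genes lie on both sides of it.

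The remaining genes of the machinery were described from lists of pathway members. No other SIAMESE-RELATED locus was called in either line: of 9 measured (11 listed), the log2 differences in 35S::JAW lay between -0.18 and 0.19 and in 35S::GA20OX between -0.16 and 0.13, and none had an unadjusted p under 0.05. These loci include SMR5 (AT1G07500), an inhibitor gene induced by DNA damage, with -0.07 in 35S::JAW and -0.14 in 35S::GA20OX. Of 12 listed genes for the kinases, their activators and the inhibitory kinase WEE1, 10 were measured. None of the 10 was called in a comparison with wild type. An unadjusted p under 0.05 was found for 0 in 35S::JAW and 1 in 35S::GA20OX. In that list CDKA;1, the main partner of the inhibitors, had a log2 difference of 0.03 ± 0.07 (SE) in 35S::JAW and -0.02 ± 0.07 in 35S::GA20OX.

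Of 10 listed D-type cyclins, whose complexes with CDKA;1 are bound by KRP proteins, 9 were measured. Their median log2 difference was -0.24 in 35S::JAW, where 9 of 9 genes and 46.1% of all loci were below 0. In 35S::GA20OX the median was -0.23, with 9 of 9 genes and 48.5% of all loci below 0. Both values are taken against the same 3 wild-type arrays, so they are not independent of each other. Only CYCD4;1 (AT5G65420) was called, and it fell by 0.37 ± 0.09 (SE) in 35S::JAW (limma adjusted p = 0.03). Its means, 4.35 in 35S::JAW and 4.72 in wild type, lay near the lower quartiles of the arrays. Its call was not followed under other settings of the fit. Unadjusted p was under 0.05 for 5 of these 9 cyclins in 35S::JAW, against 20.7% of all loci, and for 4 in 35S::GA20OX, against 10.5%. Of 15 measured A- and B-type cyclins (17 listed) none was called in either line, with an unadjusted p under 0.05 for 2 in each. Of 14 genes (16 listed) of the RBR-E2F pathway and the endocycle none was called, with 3 such genes in 35S::JAW and 1 in 35S::GA20OX. Of 5 ubiquitin ligase genes for the turnover of the inhibitors none was called, with 1 such gene in 35S::JAW and 2 in 35S::GA20OX. In the endocycle list CCS52A1 (AT4G22910), an activator of the anaphase-promoting complex, had log2 differences of -0.17 ± 0.07 (SE) in 35S::JAW and -0.02 ± 0.07 in 35S::GA20OX. FBL17 (AT3G54650), an F-box protein that directs KRP degradation in pollen, had -0.11 ± 0.06 (SE) in 35S::JAW and -0.16 ± 0.06 in 35S::GA20OX. The 5 DELLA genes, which encode the repressors that gibberellin removes, had a median of -0.30 in 35S::JAW, where RGL1 (-0.73) and GAI (-0.42) fell, and of 0.28 in 35S::GA20OX, where RGL2 (0.62) rose.

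**Figure D4:**
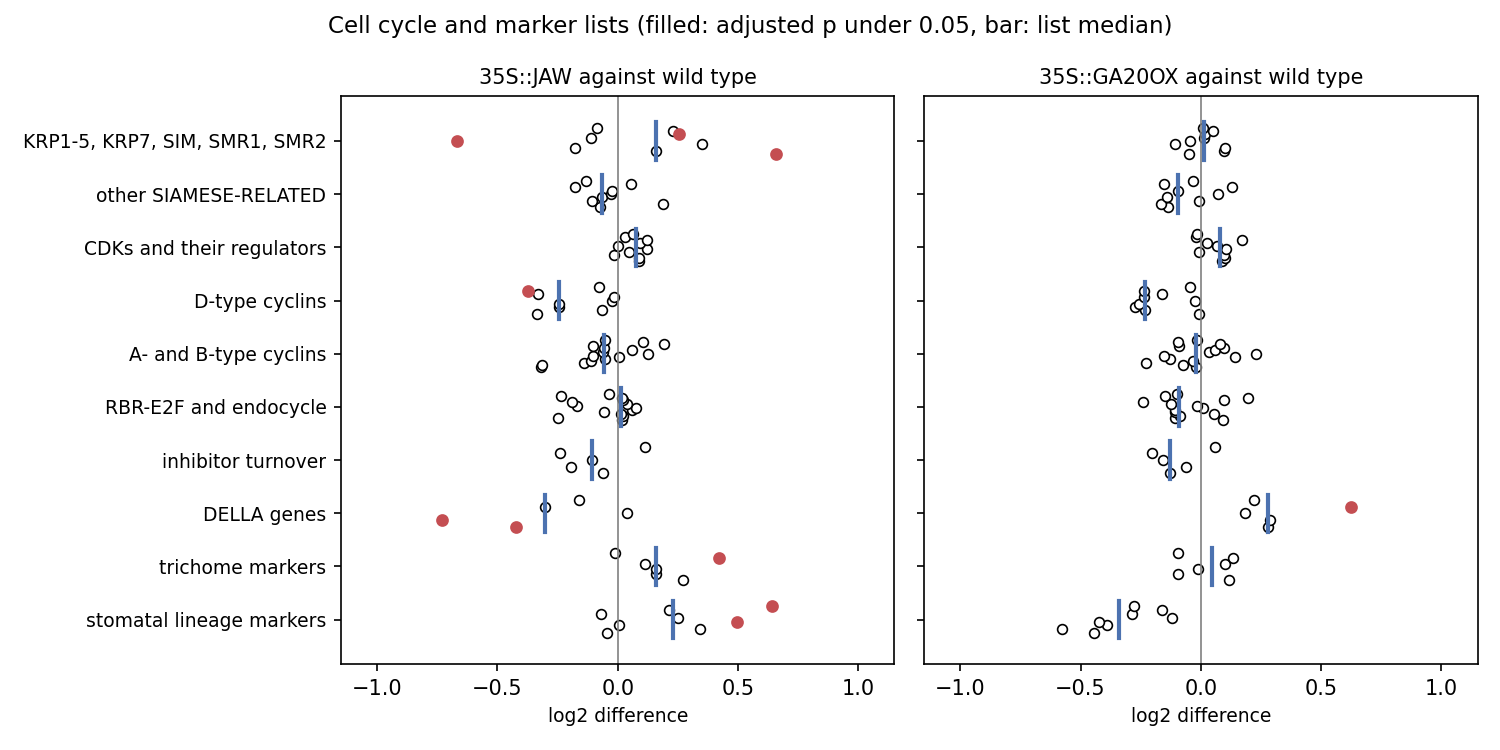
Log2 differences of the inhibitor genes and of 9 lists of cell cycle genes, DELLA genes and cell type markers in 35S::JAW and 35S::GA20OX, each against wild type; filled points have an adjusted p under 0.05 and the bar is the list median. In 35S::JAW the inhibitor genes spread from -0.67 to 0.66, wider than the other cell cycle lists; the panels share their wild-type arrays.

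SIM and SMR1 act in the epidermis, and of the epidermal markers those of the stomatal lineage also differed between the lines. None of 6 measured leaf hair markers was called between the lines. Of 8 stomatal lineage markers TMM (0.50 ± 0.10, SE) and SPCH (0.64 ± 0.15) rose in 35S::JAW against wild type (limma adjusted p = 0.00999 and 0.0261), where 6 of the 8 lay above 0. None was called in 35S::GA20OX against wild type, where all 8 lay below 0, with a median of -0.34. There the unadjusted limma p was under 0.05 for 5 of them, against 10.5% of all loci. In 35S::JAW against 35S::GA20OX 7 rose, with TMM (0.92), MYB60 (0.92), SPCH (0.92) and FAMA (0.37) at the lowest p. Of these 7, EPF2 and SDD1 differed from wild type by 0.005 and -0.04 in 35S::JAW and by -0.39 and -0.44 in 35S::GA20OX. The log2 of the summed levels of the 8 markers was 10.06 to 10.15 on the 35S::JAW arrays, 9.40 to 9.56 on the 35S::GA20OX arrays and 9.73 to 9.93 in wild type. Of 6 measured leaf hair markers (8 listed), MYB23 rose by 0.42 ± 0.09 (SE) in 35S::JAW (limma adjusted p = 0.014), and the log2 of their summed levels was 8.95 to 9.03 in 35S::JAW, 8.68 to 8.98 in 35S::GA20OX and 8.70 to 8.78 in wild type. Of 4 shoot meristem markers none was called against wild type, and KNAT1 (-0.82) and STM (-0.49) fell in 35S::JAW against 35S::GA20OX. There CLV3 (0.18) lay above 0 and was not called. Of 6 root markers only PIP2-4 was called in that comparison, and it fell (-0.39). The root list had 4 of 6 markers above 0 and a median of 0.02. Between the lines the leaf marker FNR1 rose (0.22) and, among the DELLA genes, RGL1 (-1.02), RGL2 (-0.93) and GAI (-0.70) fell. The part of these cell types in the differences of the inhibitor genes was not tested.

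Loci whose values followed the called inhibitor genes over the 9 arrays were found by Pearson's r, given as a description, since the arrays fall into 3 genotypes and loci were picked from 20777. The pattern of SMR1 was most like those of ALDH3I1 (AT4G34240, r = 0.982), ELP (AT1G12090, r = 0.975) and XTH17 (AT1G65310, r = 0.975), and 228 loci had an r above 0.9 with it. U2AF35B (AT5G42820) was the most opposed, with r = -0.989. For SMR2 the most alike were AT5G10700 (r = 0.979), AT1G19680 (r = 0.953) and AT3G13040 (r = 0.952), and the most opposed was AT2G15830 (r = -0.958). For KRP2 they were AT4G10910 (r = 0.981), LOL1 (AT1G32540, r = 0.973) and PSY (AT5G17230, r = 0.972), and the most opposed was ERD7 (AT2G17840, r = -0.967). Of these loci XTH17, a cell wall enzyme gene, had a log2 difference of -0.85 in 35S::JAW and 0.06 in 35S::GA20OX, and AT4G10910 had 0.90 and 0.08.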

How the data were processed

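The 9 samples had each been hybridised to 1 ATH1 array. What the authors deposited is a table of log2 values from RMA, as the submitters' processing notes name it, with 1 row per locus. Quantile normalisation of this kind hides a change shared by all genes, and changes of dim genes are compressed in RMA values. RMA version, chip definition and scan dates were not given in sources used here, so no batch could be tested. Symbols were looked up in RefSeq genes (TAIR10.1), which held 20508 of the 20777 loci, and for SMR2 and the lists from hand-made lists.

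Differences were computed in R 4.3.3 with limma 3.58.1 (lmFit, 1 mean per genotype over 9 arrays, eBayes), with two-sided p-values adjusted by Benjamini-Hochberg across every locus and no filter. The fit was checked on simulated data. The members and lists were chosen with earlier results of these data known. Named were all members, up to 4 called genes per list, the transgene and TCP genes, and for each member called against wild type the 3 loci most alike and the 1 most opposed. CDKA;1, CCS52A1, SMR5 and FBL17 were named in addition, after their values were seen. EPF2, SDD1, CLV3 and PSBO1 were also named outside this rule. Alternatives were cyclic loess, median centring, array weights, a replicate block, a robust prior with an intensity trend, a fit without the dimmest 40% of loci, an adjusted p of 0.01, a 2-fold minimum, fits to 6 arrays and leaving out each array.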

Additional observations from a re-analysis of the deposited data

Results flagged for a closer look

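For 4 inhibitor genes the difference from wild type in 35S::JAW was unequal to that in 35S::GA20OX by the direct test between the lines in limma. This double difference, 35S::JAW minus 35S::GA20OX on the log2 scale, was -0.62 for SMR1, 0.70 for SMR2, 0.46 for KRP4 and 0.24 for KRP2. The difference of KRP4 from wild type was not called in either line, with 0.35 in 35S::JAW and -0.11 in 35S::GA20OX. Of the 9 fits that leave out an array, the call between the lines was lost in 9 for KRP2. It was lost in 1 each for SMR2 and KRP4, and in 0 for SMR1.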

How the results depend on the processing

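No call of an inhibitor gene reversed. Of 453 values for 27 combinations of gene and comparison, 406 kept their side of the threshold, 32 lost a call and 15 gained one. Only a called combination could lose a call, so the share lost among all 453 values understates how often calls were lost. The 32 losses fell on KRP2, SMR2 and KRP4, and none fell on SMR1. The 15 changes of sign were all in values that were not called. In 35S::JAW against wild type 3 inhibitor genes were called, against 1 at an adjusted p of 0.01, 0 with a 2-fold minimum and 1 to 3 with an array left out. Between the lines 4 were called, against 1, 0 and 2 to 4. In 35S::GA20OX against wild type 0 were called under each setting. The call of KRP2 against wild type also ended with an intensity trend and robust prior (adjusted p = 0.085 in limma) and with only the 6 arrays compared (0.0515). Between the lines it ended under both settings (0.0866 and 0.0783) and with cyclic loess (0.0521). KRP1 gained a call between the lines with cyclic loess (0.0401), without the dimmest loci (0.0291), with array weights (0.0289) and with the replicate block (0.0458).

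Over all loci, 69 were called in 35S::GA20OX against wild type, and 205 with an intensity trend and robust prior, 108 without the dimmest 40% of loci, 15 at an adjusted p of 0.01, 9 with a 2-fold minimum and 22 to 79 with an array left out. In 35S::JAW against wild type 1729 loci were called, and 866 at 0.01, 168 with a 2-fold minimum and 1074 to 1682 with an array left out. Between the lines 2749 were called, and 1371, 224 and 1881 to 2729.

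The labels do not say whether the replicate numbers pair the arrays, and the values did not settle it. Deviations of same-numbered arrays from their genotype means correlated at -0.10 to 0.25, with 4 of 9 above 0.1. Of the 9 arrays, 3 correlated best with one of their own number. In each genotype replicate 2 had the lowest median and the highest lower quartile. With the numbers as a block, 4 inhibitor genes were called in 35S::JAW against wild type, 5 between the lines and 0 in 35S::GA20OX, with 1811, 2739 and 74 loci in all. Leaving out the dimmest 40% of loci removed 2 inhibitor genes, KRP5 and SMR2, which therefore have no value there. Signal over background could not be judged, since no detection calls were used here.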
